A study of Mus musculus with 12 samples.

Results

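The circadian clock genes were followed in RNA-seq of mouse pancreatic neuroendocrine tumors (PanNETs). They are the activators Arntl and Clock, the repressors Per1, Per2, Per3, Cry1 and Cry2, the nuclear receptors Nr1d1 and Nr1d2, and the output gene Dbp. They were picked by gene symbol, with earlier results of these data known, as 10 of the 38924 genes in the count tables, and all 10 passed the filter on low counts. The 12 tumors were insulinomas of RIP1Tag2 mice, strain C57Bl6, in which an insulin gene promoter drives the SV40 T antigen in beta cells, so the oncogene was present in every group. All mice were treated for 4 days from 15.5 weeks of age: 4 tumors came from controls given saline, 4 from mice given sunitinib (sutent), an inhibitor of VEGF and PDGF receptor kinases, and 4 from mice given rapamycin and sunitinib (R+S), rapamycin being an inhibitor of mTOR complexes. No group received rapamycin alone. The labels give no hour of collection. They carry a prefix that is 1 and the same for the 4 controls, is shared by sunitinib tumors 5, 6 and 8 but not 12, and is shared by R+S tumors 5 and 7 but not 4 or 10. No prefix occurs in more than 1 group, and the labels do not say whether it marks a mouse or a batch, so prefix, any difference in collection time and treatment cannot be told apart. Since the labels do not say that the tumors of a group came from separate mice, p-values measure only the spread between these tumors.

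The mammalian clock is a feedback loop of transcription. ARNTL (BMAL1) and CLOCK bind as a pair to E-box sequences and switch on the Per and Cry genes, whose proteins return to the nucleus and repress that pair, while the REV-ERB receptors encoded by Nr1d1 and Nr1d2 repress Arntl against the ROR receptors. Dbp is a direct E-box target and drives output genes through D-boxes. In most rhythmic tissues, islets included, Arntl transcript peaks roughly opposite to Dbp, Nr1d1 and the Per genes, and beta cells use the clock in the daily timing of insulin secretion.

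In R+S tumors Arntl and Cry2 stood above, and Per2 and Dbp below, every control tumor. Against the sunitinib tumors, Arntl and Cry2 again stood above and Dbp below, joined by Per1 below. None of these differences passed the edgeR test at an adjusted p of 0.05 over all genes. In sunitinib versus control, 0 of the 10 genes passed and 0 separated the groups without overlap, where 4.48% of all tested genes passed and 10.9% did not overlap. In R+S versus control, 0 passed (4.16% of all genes) and 4 did not overlap (23.5% of all genes). In R+S versus sunitinib, 0 passed (7.21% of all genes) and 4 did not overlap (18.6% of all genes). At an unadjusted p under 0.05 the counts were 2, 4 and 6 of 10 in the same order, beside 19.5%, 20.1% and 30.4% of all genes. DESeq2, run as an alternative, called 0, 4 and 4 of them, where it called 8.87%, 10.1% and 18.3% of all genes. The 3 comparisons share tumors, so their results are not independent of each other. In bulk tumors, fewer cells of a type and less RNA per cell cannot be told apart.

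**Figure D1:**
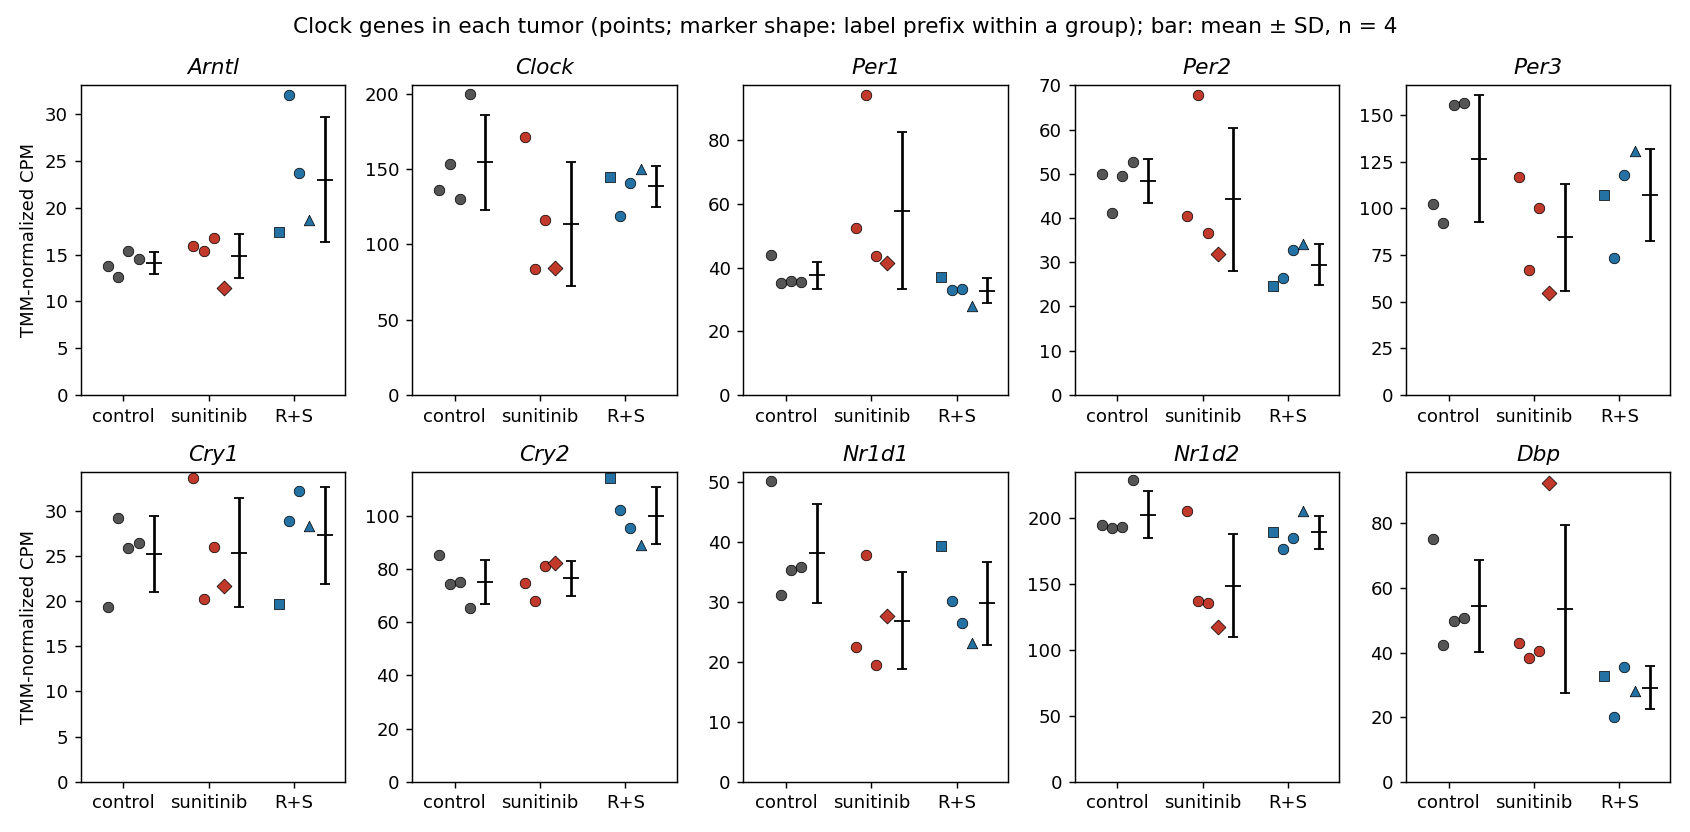
The plot of clock gene levels shows TMM-normalized CPM (vertical axes, linear, starting at 0) for the 10 genes in each tumor of the control, sunitinib and R+S groups. Points are tumors, marker shape gives the label prefix within a group, and bars give the mean ± SD of 4 tumors. The 4 R+S tumors lie between 17.4 and 32.1 for Arntl and between 20.05 and 35.4 for Dbp, apart from the other 8 tumors in both panels.

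The tumors had 31872342 to 44215054 counts on genes. The lowest count of any of the 10 genes in any tumor was 356, for Arntl in a sunitinib tumor. Counting error was not compared with the spread between tumors. Cell type markers moved with treatment. All 11 testable acinar markers of 12 listed rose in both treated groups, their summed level being 2.61 to 85.3 CPM (counts scaled to library size by TMM) in controls, 9451 to 35044 with sunitinib and 2367 to 14441 with R+S. Amy2a5 was at 0 in 6 tumors, Ptf1a in 4, Cela2a in 1 and, of the duct markers, Cftr in 1. Of 6 endothelial markers, 5 fell in both treated groups, from a summed 289 to 429 CPM to 32.2 to 65.3 with sunitinib and 70.0 to 91.5 with R+S, and 3 rose in R+S versus sunitinib. The 8 beta cell markers were present in every tumor and none passed a test, with sums of 36656 to 60292 CPM in controls, 1663 to 75721 with sunitinib and 40982 to 65890 with R+S. Sunitinib tumor 6 held the 1663 and stands apart from the rest in this respect. Of 6 duct, 6 stroma, 6 macrophage and 6 lymphocyte markers, 2, 1, 1 and 0 passed the test in sunitinib versus control, the duct markers upward and the others downward, and 0 passed in the R+S comparisons. The part of these cell types in the levels of clock genes was not tested.

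Scaled by length, as CPM per kb of exon, the order of transcript levels in control tumors ran from Nr1d2 (37.5 ± 3.31, SD, n = 4) through Dbp (18.2 ± 4.77), Per3 (13.2 ± 3.56), Nr1d1 (12.4 ± 2.69), Cry2 (11.9 ± 1.29), Clock (11.3 ± 2.30), Per2 (8.25 ± 0.850), Cry1 (7.55 ± 1.25) and Per1 (6.68 ± 0.761) down to Arntl (1.87 ± 0.159). Neighbours in that order overlapped between tumors except at 3 steps, namely Nr1d2 to Dbp, Clock to Per2 and Per1 to Arntl. With sunitinib, Nr1d2 stood at 27.5 ± 7.19 and Arntl at 1.98 ± 0.315 CPM per kb at the ends of the order, and only the step down to Arntl was free of overlap. With R+S, Nr1d2 was again the highest at 35.0 ± 2.28 and Arntl again the lowest at 3.06 ± 0.885. There Cry2 took the second place at 15.8 ± 1.71, while Dbp, at 9.72 ± 2.25, was the fifth. In the R+S order, Nr1d2 did not overlap Cry2 and Cry2 did not overlap Per3, whereas Per2 at 5.03 ± 0.797 overlapped Arntl. By group means, the clock genes thus kept their highest and lowest members in all 3 groups. In sunitinib tumor 12, however, Dbp at 30.9 CPM per kb was above Nr1d2 at 21.7.

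Arntl (ENSMUSG00000055116, GRCm38 chr7:113207465-113314126, plus strand), the DNA-binding partner of CLOCK, was measured in control tumors 1 to 4 at 13.8, 12.6, 15.4 and 14.6 CPM. In sunitinib tumors 5, 6, 8 and 12 it was at 15.9, 15.3, 16.8 and 11.4 CPM, and in R+S tumors 4, 5, 7 and 10 at 17.4, 32.1, 23.8 and 18.7 CPM. All 4 R+S tumors were above all 8 others, and the R+S tumors 5 and 7, which share a label prefix, were the highest. R+S was 1.63-fold higher than control (log2 fold change 0.71, SE 0.20, 95% interval 0.27 to 1.15, edgeR adjusted p = 0.0723). It was 1.55-fold higher than sunitinib (log2 0.63, SE 0.20, interval 0.19 to 1.07, adjusted p = 0.0715). The two-sided exact permutation test gave p = 0.0286 for each, the smallest that 4 tumors against 4 can give. Any gene whose groups do not overlap gets that value, so it restates the lack of overlap and is no further test. It was reached by 23.5% of all genes in R+S versus control and 18.6% in R+S versus sunitinib. The same holds where it is given for Per1, Per2, Cry2 and Dbp below. Sunitinib and control differed in Arntl by 0.08 on the log2 scale (SE 0.20, interval -0.36 to 0.52, adjusted p = 0.858). Without R+S tumor 5 the differences of R+S from control and from sunitinib were 0.50 and 0.43. Arntl is the member whose RefSeq promoter window holds the ROR element TAGGTCA, the sequence at which ROR receptors and REV-ERBs compete. The stretch, on the plus strand at chr7:113207530-113207558 of GRCm38.p6, begins its element 30 bases after a RefSeq start, and capitals mark the element.
Arntl: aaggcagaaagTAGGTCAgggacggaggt

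Clock (ENSMUSG00000029238, chr5:76209868-76304792, minus strand) encodes the partner of ARNTL. It lay between 129.9 and 199.6 CPM in controls, between 83.7 and 171.3 with sunitinib and between 118.8 and 150.1 with R+S, and all 3 groups overlapped. The log2 difference of sunitinib from control was -0.44 (SE 0.22, interval -0.93 to 0.05, edgeR adjusted p = 0.303). R+S differed from control by -0.16 and from sunitinib by 0.28, with adjusted p of 0.736 and 0.409.

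Per1 (ENSMUSG00000020893, chr11:69095217-69109960, plus strand) encodes a PERIOD repressor that also responds within an hour or so to hormones and cAMP. It was at 44.0, 35.2, 35.8 and 35.3 CPM in control tumors 1 to 4. Sunitinib tumors 5, 6, 8 and 12 gave 52.5, 94.2, 43.6 and 41.5 CPM, and R+S tumors 4, 5, 7 and 10 gave 37.1, 33.0, 33.4 and 27.8 CPM. The highest value was that of sunitinib tumor 6, the tumor low in beta cell markers, and the sunitinib and R+S tumors did not overlap. R+S was 1.77-fold lower than sunitinib (log2 -0.82, SE 0.23, interval -1.33 to -0.31, edgeR adjusted p = 0.0551, exact permutation p = 0.0286). Sunitinib was above control by 0.62 on the log2 scale (SE 0.23, interval 0.12 to 1.13, adjusted p = 0.168), and R+S was at -0.20 against control (adjusted p = 0.679). Without sunitinib tumor 6, these became -0.48 for R+S versus sunitinib, with an adjusted p of 0.0461, and 0.29 for sunitinib versus control. Without sunitinib tumor 5 the R+S versus sunitinib difference was -0.87, with an adjusted p of 0.0411. In that comparison the fits without tumors 6 and 5 called 1692 of 16822 and 2861 of 16894 genes. Per1 passed there in 2 of the 12 fits that left out 1 tumor. The E-box at which ARNTL and CLOCK act, CACGTG, lies in the promoter windows of Per1 and Cry1, both shown here with the element in capitals. That of Per1 is on the plus strand at chr11:69098763-69098808, inside the annotated gene and 166 bases before a downstream RefSeq start, and that of Cry1 on the minus strand at chr10:85185089-85185134, 60 bases before its start.
Per1: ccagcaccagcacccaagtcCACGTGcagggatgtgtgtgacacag
Cry1: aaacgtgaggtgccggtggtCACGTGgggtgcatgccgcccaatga

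Per2 (ENSMUSG00000055866, chr1:91415982-91459324, minus strand) encodes the PERIOD protein needed for stable rhythms. Control tumors 1 to 4 held 49.9, 41.1, 49.5 and 52.7 CPM. Sunitinib tumors 5, 6, 8 and 12 held 40.4, 67.9, 36.5 and 31.9 CPM, and R+S tumors 4, 5, 7 and 10 held 24.7, 26.4, 32.7 and 34.2 CPM. Every R+S tumor was below every control, while sunitinib tumors spanned both, with tumor 6 again the highest. R+S was 1.64-fold lower than control (log2 -0.71, SE 0.22, interval -1.19 to -0.24, edgeR adjusted p = 0.0905, exact permutation p = 0.0286). Its difference from sunitinib was -0.58 (SE 0.22, adjusted p = 0.102), or -0.30 without sunitinib tumor 6, and sunitinib was at -0.13 against control (adjusted p = 0.772), or -0.41 without sunitinib tumor 6 and -0.0024 without tumor 12.

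Per3 (ENSMUSG00000028957, chr4:151003652-151044665, minus strand), the PERIOD gene that is least needed for rhythm, lay between 92.3 and 156.6 CPM in controls, 54.7 and 116.8 with sunitinib, and 73.3 and 131.1 with R+S. The groups overlapped in all 3 comparisons. The log2 differences were -0.58 for sunitinib versus control (SE 0.27, edgeR adjusted p = 0.263), -0.24 for R+S versus control and 0.34 for R+S versus sunitinib. The interval of R+S versus control, -0.83 to 0.35, holds the value of -0.71 measured in Per2. It is the member with D-boxes (TTATGTAA or TTACGTAA), the element bound by DBP and its relatives, in its promoter window. There are 2, on the minus strand at chr4:151044801-151044885, beginning 205 and 158 bases before the start and shown in capitals.
Per3: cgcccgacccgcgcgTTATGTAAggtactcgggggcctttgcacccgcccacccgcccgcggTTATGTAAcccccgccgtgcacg

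Cry2 (ENSMUSG00000068742, chr2:92403646-92434043, minus strand) encodes a CRYPTOCHROME, which binds PER proteins and blocks the ARNTL and CLOCK pair. Its levels were 85.5, 74.4, 75.2 and 65.5 CPM in control tumors 1 to 4, 74.9, 67.9, 81.1 and 82.2 in sunitinib tumors 5, 6, 8 and 12, and 114.2, 102.1, 95.3 and 88.9 in R+S tumors 4, 5, 7 and 10. The 4 R+S tumors were the 4 highest of the 12. R+S was 1.33-fold higher than control (log2 0.41, SE 0.12, interval 0.16 to 0.67, edgeR adjusted p = 0.0679) and 1.31-fold higher than sunitinib (log2 0.39, SE 0.12, interval 0.14 to 0.64, adjusted p = 0.0608), with an exact permutation p of 0.0286 each. Cry2 had the smallest standard error of the 10 genes, and sunitinib and control differed by 0.03 (interval -0.23 to 0.28), which became -0.02 when libraries were scaled by their totals. Its exons share 295 bases with a transcript on the opposite strand, D930015M05Rik, which was at 0.791 to 2.75 CPM over all tumors.

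Cry1 (ENSMUSG00000020038, chr10:85131700-85185064, minus strand), the stronger repressor of the CRYPTOCHROME pair, lay between 19.3 and 29.2 CPM in controls, 20.3 and 33.6 with sunitinib, and 19.7 and 32.2 with R+S. The 3 ranges nearly coincide. The log2 differences were 0.01 for sunitinib versus control (interval -0.43 to 0.45), 0.11 for R+S versus control (interval -0.33 to 0.56) and 0.10 for R+S versus sunitinib (interval -0.34 to 0.55), with edgeR adjusted p of 0.986, 0.797 and 0.751. The first of these was -0.02 when libraries were scaled by their totals. The intervals still hold changes of the size measured in Cry2, so a like change in Cry1 was not detectable here rather than absent.

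**Figure D2:**
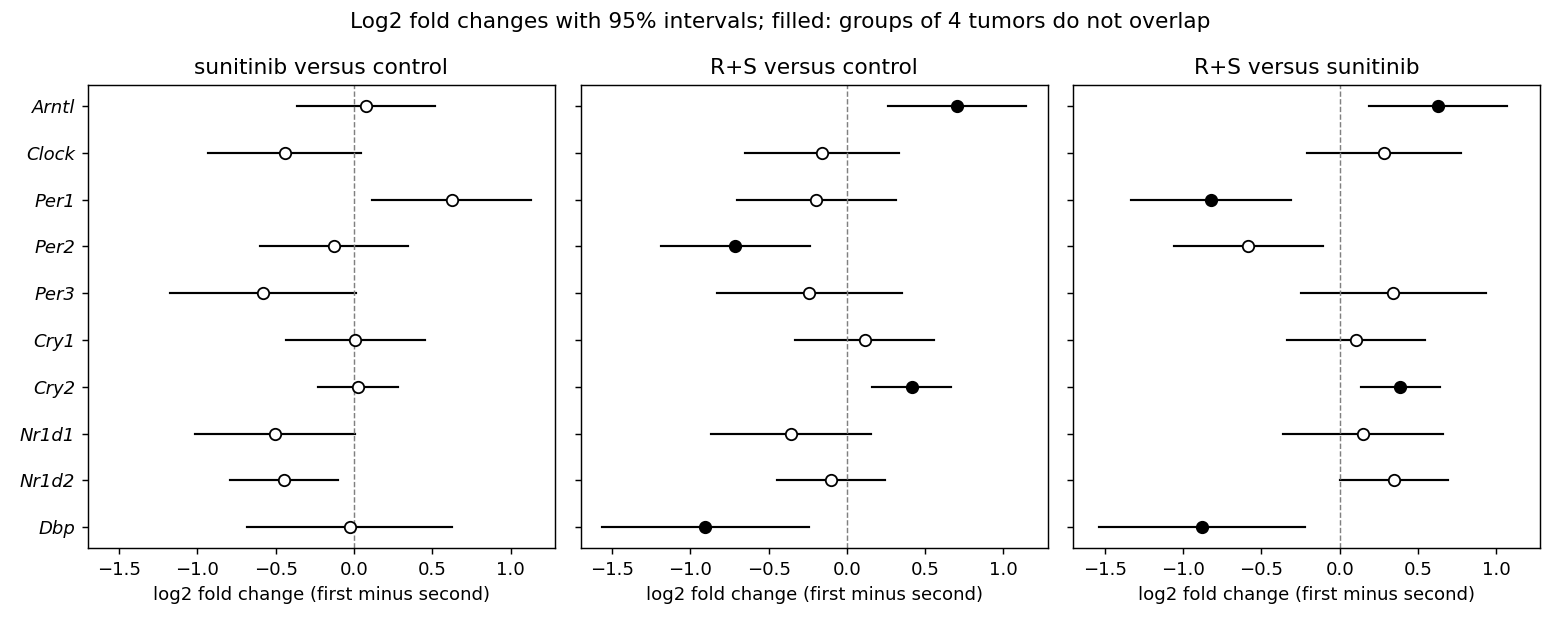
The plot of log2 fold changes gives each of the 10 clock genes in the 3 comparisons, with the first group named minus the second on the horizontal axis. Points are edgeR estimates, bars are 95% intervals, and filled points mark genes whose 4 tumors in each group did not overlap. In R+S versus control the filled points are Arntl at 0.71, Cry2 at 0.41, Per2 at -0.71 and Dbp at -0.90, and none is filled in sunitinib versus control.

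Nr1d2 (ENSMUSG00000021775, chr14:18204054-18239127, minus strand), which encodes REV-ERB beta, was at 194.8, 192.8, 193.6 and 229.5 CPM in control tumors 1 to 4. Sunitinib tumors 5, 6, 8 and 12 gave 205.6, 137.1, 135.6 and 117.3 CPM, and R+S tumors 4, 5, 7 and 10 gave 189.8, 176.4, 185.1 and 205.9 CPM. Sunitinib tumors 6, 8 and 12 were below all controls and all R+S tumors, whereas tumor 5 was within both ranges. Sunitinib differed from control by -0.44 on the log2 scale (SE 0.16, interval -0.79 to -0.10, edgeR adjusted p = 0.152, exact permutation p = 0.114). Without sunitinib tumor 5 that difference was -0.63, with an adjusted p of 0.00914. R+S was at 0.35 against sunitinib (SE 0.16, adjusted p = 0.164), which was 0.53 with an adjusted p of 0.0146 without tumor 5, and at -0.10 against control (adjusted p = 0.770). Tumor 5 was the highest sunitinib tumor, so leaving it out was bound to widen the differences of sunitinib from control and from R+S. The fit without it called 902 and 2861 of 16894 genes in these comparisons. In each of them, Nr1d2 passed in 1 of the 12 fits that left out 1 tumor.

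Nr1d1 (ENSMUSG00000020889, chr11:98767932-98775333, minus strand) encodes REV-ERB alpha, the heme-binding repressor of Arntl. It lay between 31.1 and 50.1 CPM in controls, 19.4 and 37.8 with sunitinib, and 23.1 and 39.2 with R+S. In the sunitinib and in the R+S group, 3 of 4 tumors were below all controls. The log2 difference from control was -0.50 with sunitinib (SE 0.23, interval -1.02 to 0.01, edgeR adjusted p = 0.262) and -0.36 with R+S (SE 0.23, interval -0.87 to 0.15, adjusted p = 0.419). Without control tumor 1, the highest, these were -0.34 and -0.20. R+S and sunitinib differed by 0.15 (adjusted p = 0.695), with a direction that turned, at -0.01, when 1 tumor was left out. Nr1d1 shares 263 exonic bases (8.55% of its exons) with Thra, the thyroid hormone receptor gene on the opposite strand. Thra was at 50.7 to 83.4 CPM in controls, 47.9 to 148.3 with sunitinib and 58.4 to 84.1 with R+S.

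Dbp (ENSMUSG00000059824, chr7:45705088-45710203, plus strand), the PAR bZIP output factor, held 75.1, 42.2, 49.8 and 50.7 CPM in control tumors 1 to 4. It held 43.0, 38.3, 40.3 and 92.4 CPM in sunitinib tumors 5, 6, 8 and 12, and 32.7, 20.05, 35.4 and 28.2 CPM in R+S tumors 4, 5, 7 and 10. The 4 R+S tumors were the 4 lowest of the 12, and sunitinib tumor 12, which alone carries its label prefix, was the highest. R+S was 1.87-fold lower than control (log2 -0.90, SE 0.30, interval -1.56 to -0.24, edgeR adjusted p = 0.121) and 1.84-fold lower than sunitinib (log2 -0.88, SE 0.30, interval -1.54 to -0.22, adjusted p = 0.0843), with an exact permutation p of 0.0286 each. Sunitinib and control differed by -0.03 (interval -0.68 to 0.63), a value that moved to -0.43 without sunitinib tumor 12. Without that tumor the difference of R+S from sunitinib was -0.48. Dbp shares 539 exonic bases (18.0% of its exons) with Sphk2, a sphingosine kinase gene on the opposite strand, which was at 43.1 to 83.3 CPM in controls, 38.7 to 67.5 with sunitinib and 44.6 to 59.2 with R+S. The libraries were stranded, but whether the counting used strand is not given in the sources used here.

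Over the 10 genes the median log2 difference was -0.08 for sunitinib versus control (all tested genes 0.03), -0.18 for R+S versus control (all genes 0.01) and 0.22 for R+S versus sunitinib (all genes -0.03). Positive and negative values numbered 4 and 6, 3 and 7, and 7 and 3 in that order. In R+S versus control the repressors were on both sides, Per2 below and Cry2 above, and in an edgeR fit of only the 8 tumors of that pair of groups, Arntl, Per2, Cry2 and Dbp passed the test with adjusted p of 0.0410, 0.0101, 0.0366 and 0.0261. That fit called 15.8% of all genes, whereas the fits of 8 tumors for sunitinib versus control and R+S versus sunitinib called 2.33% and 0.0186% of all genes and 0 of the 10 in each. DESeq2 on all 12 tumors gave them adjusted p of 0.0159, 0.0260, 0.0162 and 0.0447. In R+S versus sunitinib, DESeq2 called Arntl, Per1, Cry2 and Dbp with adjusted p of 0.0267, 0.0104, 0.0204 and 0.0343. When tumors sharing a prefix were summed in the treated groups, 0 of the 10 passed in any comparison. That fit called 752, 671 and 1043 of 17127 genes in sunitinib versus control, R+S versus control and R+S versus sunitinib. Without sunitinib tumor 6, edgeR called 0, 3 and 1 of the 10 in sunitinib versus control, R+S versus control (Arntl, Per2 and Cry2) and R+S versus sunitinib (Per1), beside 5.30%, 9.67% and 10.1% of all genes.

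A further 20 genes of the clock or closely tied to it were listed and all were tested. In edgeR 0 of them passed in any comparison. At an unadjusted p under 0.05 there were 3, 7 and 8 in sunitinib versus control, R+S versus control and R+S versus sunitinib, and DESeq2 called 0, 0 and 5. Over all genes the unadjusted shares were 19.5%, 20.1% and 30.4%, and those of DESeq2 8.87%, 10.1% and 18.3%. The groups did not overlap for 1 (Nfil3), 5 (Rora, Nfil3, Bhlhe41, Fbxl21 and Csnk1d) and 4 (Rorb, Bhlhe41, Ciart and Timeless) of them, as for 10.9%, 23.5% and 18.6% of all genes. Their median log2 differences were 0.08, 0.15 and -0.04. The genes named from it, and from the list of glucocorticoid-responsive genes, were chosen after their values were seen.

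Ciart encodes CHRONO, a further repressor of the ARNTL and CLOCK pair, and had the smallest adjusted p of this list. It was at 8.06, 8.28, 5.58 and 4.51 CPM in controls, 8.85, 6.19, 8.34 and 9.02 with sunitinib and 3.25, 3.99, 5.71 and 2.30 with R+S. All R+S tumors were below all sunitinib tumors, and R+S tumor 7 was within the control range. R+S was at -1.09 against sunitinib (SE 0.30, edgeR adjusted p = 0.0511) and at -0.79 against control (SE 0.30, adjusted p = 0.165). Its promoter window is shown because it holds 3 E-boxes, in capitals, on the minus strand at chr3:95882252-95882359, beginning 116, 58 and 44 bases before the start.
Ciart: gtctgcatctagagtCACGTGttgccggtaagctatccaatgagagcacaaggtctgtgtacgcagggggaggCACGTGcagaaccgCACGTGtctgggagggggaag

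Among activators of Arntl, Rora, a ROR receptor gene, lay between 33.6 and 46.8 CPM in controls, 23.3 and 67.5 with sunitinib and 57.6 and 80.9 with R+S. All R+S tumors were above all controls (log2 0.65, SE 0.27, edgeR adjusted p = 0.201). Nfil3, which encodes the repressor E4BP4 that competes with DBP for D-boxes, was at 11.8 to 13.8 CPM in controls, 14.2 to 33.6 with sunitinib and 15.4 to 29.6 with R+S. It was the only one of the 30 clock genes whose sunitinib and control tumors did not overlap (log2 0.79, SE 0.27, adjusted p = 0.138), and R+S was likewise above control without overlap (log2 0.71, SE 0.27, adjusted p = 0.168). These became 0.49 without sunitinib tumor 6 and 0.47 without R+S tumor 5. Bhlhe41, which encodes the E-box repressor DEC2, was at 64.4 to 89.8 CPM in controls, 57.5 to 86.1 with sunitinib and 91.2 to 132.5 with R+S. It was above both other groups in all 4 R+S tumors, with log2 differences of 0.48 from control (adjusted p = 0.124) and 0.56 from sunitinib (adjusted p = 0.0562). Its relative Bhlhe40 was at 69.8 CPM in sunitinib tumor 6 and at 7.10 to 18.3 CPM in the other 11 tumors, so that its log2 difference of -1.57 for R+S versus sunitinib (adjusted p = 0.0709) became -0.63 without tumor 6.

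The PAR bZIP relatives of Dbp did not separate the groups. Tef was at 112.7 to 169.0 CPM in controls, 93.0 to 171.9 with sunitinib and 93.4 to 124.7 with R+S. Hlf was at 17.6 to 31.0, 6.00 to 37.7 and 9.36 to 22.8 CPM in the same groups, and its lowest value was that of sunitinib tumor 12, where Dbp was at its highest.

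**Figure D3:**
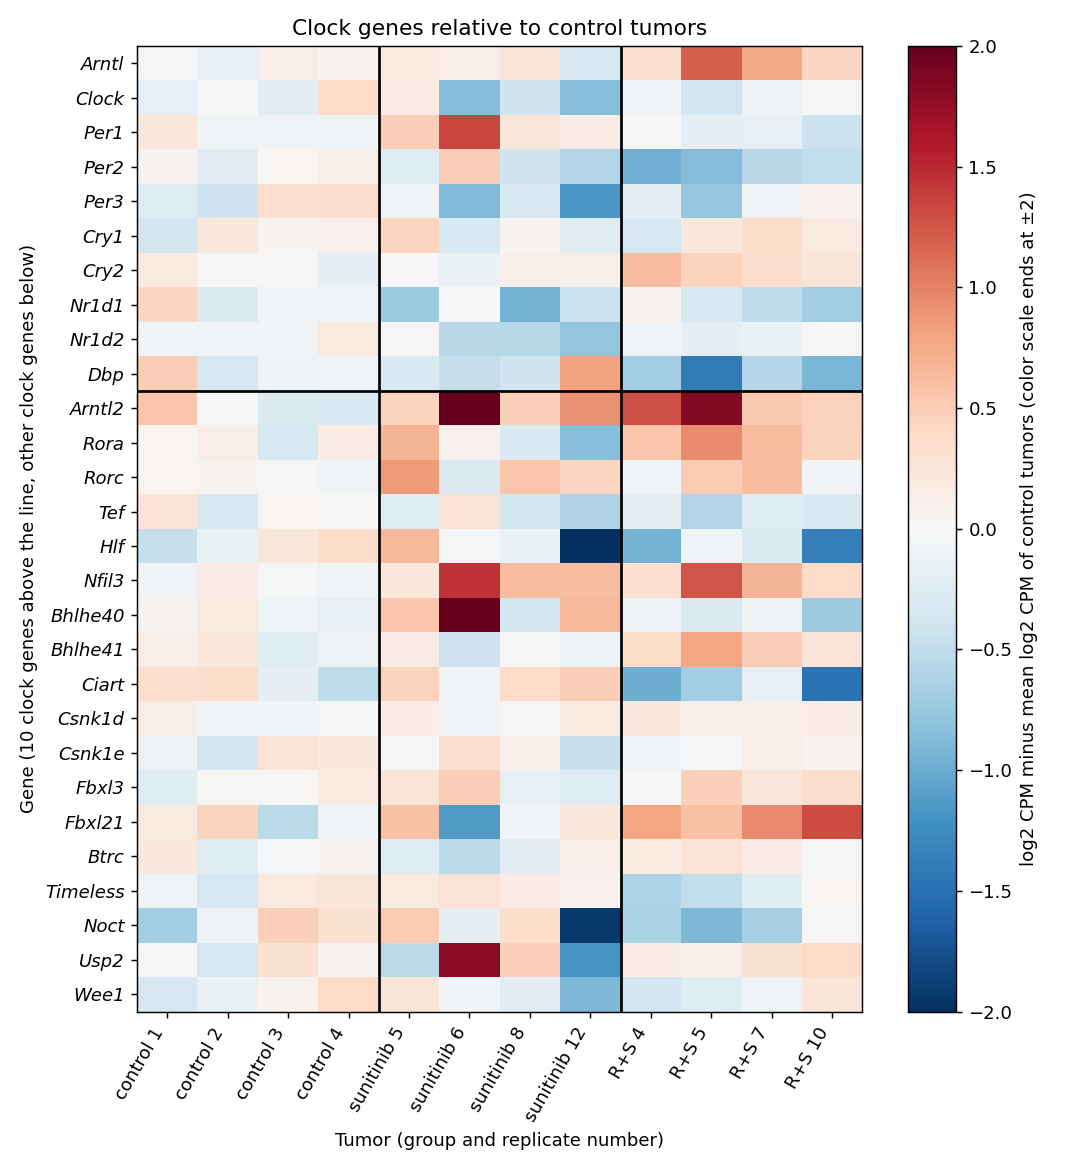
The heat map shows log2 CPM minus the mean of the control tumors for the 10 clock genes (above the line) and 18 other clock genes (below it), with Npas2 and Rorb left out for their low counts. Columns are the 12 tumors, red is above and blue below the control mean, and the color scale ends at 2 in either direction. The Arntl row is red in all 4 R+S tumors and the Dbp row blue in the same 4, while sunitinib tumors 6 and 12 differ from the rest of their group in several rows.

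The sequence elements were searched by their letters on both strands of RefSeq promoter windows, which run from 250 bases before to 50 after a start. Of the 10 clock genes, 9 had an entry, with 13 windows, as did 14 of the other 20, with 19 windows. The E-box CACGTG was in windows of 2 of the 9 genes, Cry1 and Per1, and of 3 of the 14, Bhlhe41, Ciart and Tef, where 7.15% of all 32817 windows hold it. The D-box was found in Per3 and in Timeless (1.05% of all windows), and the ROR element in Arntl and in Nfil3 (2.61%). The cAMP response element TGACGTCA was in 0 of the 9 and in Hlf (1.79%). The percentages are per window, whereas a gene was counted when any of its windows held the element, so they are not like measures. These matches describe the letters only, and whether the elements bear on the levels of these genes was not tested.

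Some clock genes, Per1 among them, respond to glucocorticoids, so 8 glucocorticoid-responsive genes were listed. In edgeR 0 of 8 passed in any comparison, beside 4.48%, 4.16% and 7.21% of all genes in the order above. At an unadjusted p under 0.05 there were 1, 1 and 4, beside 19.5%, 20.1% and 30.4% of all genes. The median log2 differences of the 8 were 0.31, -0.32 and -0.53. DESeq2 called 0, 1 (Tsc22d3) and 3 (Tsc22d3, Sgk1 and Cdkn1a), beside 8.87%, 10.1% and 18.3% of all genes. The groups did not overlap for 1 (Fkbp5), 2 (Sgk1 and Klf9) and 3 (Sgk1, Tsc22d3 and Cdkn1a) of them. Over all genes the groups did not overlap for 10.9%, 23.5% and 18.6%. Sgk1, a kinase gene induced by the hormone, was at 16.9 to 19.8 CPM in controls, 16.7 to 47.2 with sunitinib and 10.98 to 15.1 with R+S. The R+S tumors were below all others, by -0.99 against sunitinib (SE 0.29, adjusted p = 0.0593) and -0.47 against control (SE 0.29, adjusted p = 0.386), and the 47.2 was that of sunitinib tumor 6. Without that tumor the first of these was -0.52, with an adjusted p of 0.0420, in a fit that called 10.1% of all genes. Tsc22d3, which encodes GILZ, was at 26.3 to 35.1, 28.4 to 33.6 and 21.1 to 26.9 CPM in the same groups, and R+S was at -0.39 against sunitinib (SE 0.13, adjusted p = 0.0777) and at -0.43 against control (SE 0.13, adjusted p = 0.0849). Other genes of the list had differences of the opposite sign. Klf9, a Kruppel-like factor gene, was at 14.95 to 20.7 CPM in controls and 25.3 to 30.0 with R+S (log2 0.58, SE 0.40, adjusted p = 0.451), and at 5.65 to 37.9 with sunitinib. Fkbp5, which encodes a chaperone of the glucocorticoid receptor, was at 147.3 to 160.3 CPM in controls, 51.4 to 137.0 with sunitinib (log2 -0.44, SE 0.29, adjusted p = 0.431) and 119.8 to 256.3 with R+S (log2 0.60 against sunitinib, SE 0.29, adjusted p = 0.190).

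Because Arntl and Dbp peak at opposite times and no hour of collection is given, their levels were also compared within groups, as deviations of log2 CPM from the group mean in the 12 tumors, which removes the difference between treatments. Pearson's r was -0.62 (exact two-sided permutation within groups, p = 0.0534) and Spearman's rho -0.62 (p = 0.0634). Adjusted over the 9 relations of Arntl to the other clock genes, these were 0.481 and 0.571. Without the 2 tumors farthest from the median in Arntl, R+S tumor 5 and sunitinib tumor 12, r was -0.26. Leaving out the extremes of Arntl narrows its range, which tends to weaken r, so this cannot show that the relation rests on those tumors. Leaving out 1 tumor gave r between -0.73 and -0.43. When tumors sharing a prefix were summed in the treated groups, r was -0.44. Of the prefixes, only that of the 4 controls holds more than 3 tumors, too few for a value within a prefix. For the other 8 partners r lay between -0.17 and 0.43, and Nr1d1 was at -0.16. The tumors of the shared R+S prefix, 5 and 7, held the lowest and the highest Dbp of their group.

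**Figure D4:**
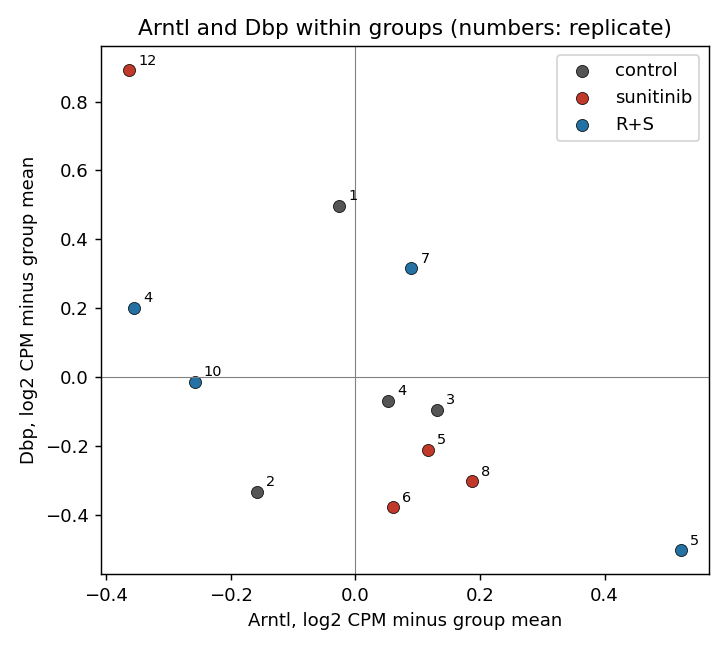
The scatter plot sets Arntl (horizontal) against Dbp (vertical) in the 12 tumors, each as log2 CPM minus its group mean. Points are tumors, colors are groups and numbers are replicate numbers. Sunitinib tumor 12 at the upper left and R+S tumor 5 at the lower right are the tumors without which r moves from -0.62 to -0.26.

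Of 12568 genes compared over the 12 tumors, those most like Dbp in log2 CPM were Mrnip (r 0.94), Adrm1 (0.94), Zwint (0.94), Sac3d1 (0.93) and Sub1 (0.92). In deviations from the group means they were Adrm1 (0.96), Rabgef1 (0.95), Eid2 (0.94), Mrnip (0.93) and Arfrp1 (0.92). Those most like Arntl in log2 CPM included Numa1 (0.91), Mical3 (0.91), Dcp1b (0.90) and Lmln (0.89), and in deviations Igfbp5 (0.91), Net1 (0.90), Zbtb25 (0.90), Btnl7-ps (0.87) and Tnr (0.87). These are descriptions over tumors that share treatments and prefixes, and the genes were picked as the highest of many. No clock gene was among these, and the clock genes most like Dbp were Ciart in log2 CPM (0.64) and Csnk1d in deviations (0.74), and those most like Arntl were Rora in log2 CPM (0.74) and Hlf in deviations (0.76).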

How the data were processed

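RNA-seq libraries (stranded, poly(A)) had been made from 12 PanNETs, 4 per group. The authors deposited 1 table per tumor of raw counts of reads per gene, with no normalization. The submitters' processing notes name cutadapt 1.2.1, TopHat2 2.0.9, HTSeq 0.5.4p3 and GRCm38, and the annotation release and strand setting are not given in the sources used here. Reads placed at several sites are not in the counts. The 5 summary lines of each table were left out (reads on no gene, 11.1% to 18.8% of gene, no-gene and ambiguous reads together).

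Symbols came from GENCODE M21, which paired 37607 of 38924 identifiers. After TMM normalization, edgeR 4.0.16 (limma 3.58.1, R 4.3.3) gave robust quasi-likelihood tests from 1 fit of 3 groups, for 16645 genes kept by filterByExpr (minimum count 10, total 15), with Benjamini-Hochberg adjustment over all tested genes and a threshold of 0.05. Intervals are fold change ± the t quantile times SE. Log2 CPM used a prior count of 2. Exact two-sided permutation tests ran over the 70 arrangements of 4 against 4 tumors. Lengths are unions of annotated exons. The edgeR fit was tested on simulated counts.

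The members and the lists of other clock, glucocorticoid-responsive and cell type marker genes were chosen with earlier results of these data known. Named genes were all members, any listed gene past the threshold, and the 5 genes most like Dbp and like Arntl, of which 1 is not reported here. Since no listed gene passed, the listed genes described were picked after their values were seen. Other normalizations, filters, DESeq2 1.42.0, fits of 8 tumors, sums over shared label prefixes and leaving out each tumor were tried. Groups follow the treatment label.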

Additional observations from a re-analysis of the deposited data

Results flagged for a closer look

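In 3 cases 1 tumor stood apart from the other 3 of its group, by a gap that exceeded Dixon's 95% critical value for 4 samples. Per1 in control tumor 1 was at 44.0 CPM, where the other controls were at 35.2 to 35.8. Nr1d2 in control tumor 4 was at 229.5 CPM, where the other controls were at 192.8 to 194.8. Dbp in sunitinib tumor 12 was at 92.4 CPM, where the other sunitinib tumors were at 38.3 to 43.0. These were 3 of 30 groups tested, and chance flags about 1 in 20.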

How the results depend on the processing

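No paired analysis was run, since the labels give no pairing of tumors between groups. Each of the 10 clock genes had at least 356 counts in every tumor. Genes called over the whole table (745, 693 and 1200 in sunitinib versus control, R+S versus control and R+S versus sunitinib) became 1477, 1688 and 3045 with DESeq2, 380, 2557 and 3 in fits of the 8 tumors compared, and 1, 0 and 1 when prefix-mates were summed in all groups, where the controls become 1 sample whose spread is assumed to be that of the other groups (1173 genes at an unadjusted p under 0.05 in R+S versus control). They were 408 in sunitinib versus control with at least 10 counts in every tumor and 501 in R+S versus sunitinib with no filter. Leaving out 1 tumor gave 440 to 902, 292 to 1627 and 0 to 2861, with 0 without R+S tumor 5 and 2861 without sunitinib tumor 5. In R+S versus sunitinib the count fell without any R+S tumor, to 1, 1 and 314 without tumors 4, 7 and 10. Clock genes called were 0 in each comparison, and 4 in R+S versus control with DESeq2 and with 8 tumors, 4 in R+S versus sunitinib with DESeq2 and 1 (Per1) there with upper-quartile normalization or at least 10 counts in every tumor. Leaving out 1 tumor gave 0 to 1 (Nr1d2 without sunitinib tumor 5), 0 to 3 (Arntl, Per2 and Cry2 without sunitinib tumor 6, Arntl and Dbp without 12) and 0 to 2 (Per1 and Nr1d2 without 5, Per1 without 6). In R+S versus sunitinib, upper-quartile normalization called 1259 of 16645 genes over the whole table and at least 10 counts 1305 of 14330. Without sunitinib tumor 5, 902 of 16894 genes passed in sunitinib versus control and 2861 in R+S versus sunitinib. Without tumor 6, 1627 of 16822 passed in R+S versus control and 1692 in R+S versus sunitinib. Without tumor 12, 1212 of 16890 passed in R+S versus control. Other clock genes called were 1 (Bhlhe40) in sunitinib versus control with prefix-mates summed in treated groups, 1 (Rora) in R+S versus control with 8 tumors, and in R+S versus sunitinib 5 with DESeq2 (Rorb, Bhlhe40, Bhlhe41, Ciart and Timeless), 1 (Ciart) with DESeq2 size factors or at least 10 counts, 1 (Bhlhe40) with prefix-mates summed, and 0 to 4 when 1 tumor was left out. The 4 came without sunitinib tumor 5, and DESeq2 size factors called 1225 of 16645 genes in R+S versus sunitinib. The cause of these shifts was not tested. In sunitinib versus control, library-size scaling reversed Cry1 (-0.0226) and Cry2 (-0.0157), and summing prefix-mates in treated or in all groups reversed Arntl (-0.0361 and -0.0438), Cry1 (-0.0547 and -0.0451) and Dbp (0.30 and 0.26). Leaving out 1 tumor gave -0.14 to 0.10 for Cry1, -0.0355 to 0.0928 for Cry2 and -0.43 to 0.17 for Dbp there, and -0.0122 to 0.36 for Nr1d1 in R+S versus sunitinib. The relation of Arntl to Dbp had an r of -0.73 to -0.43 when 1 tumor was left out. The R+S differences of Arntl, Per2, Cry2 and Dbp from control kept their direction under every alternative run. For these genes the R+S and control tumors did not overlap, so leaving out or summing tumors could hardly have turned the direction.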

Other observations

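Some genes tied to the clock that the text has not described had their extreme values in sunitinib tumors 6 and 12. They were chosen after their values were seen. Noct, which encodes a rhythmic phosphatase, was at 9.34 CPM in sunitinib tumor 12 and at 19.2 to 50.8 CPM in the other 11 tumors. Usp2, which encodes a rhythmic deubiquitinase, was at 21.7 CPM in sunitinib tumor 6 and at 2.76 to 8.79 CPM elsewhere. Cdkn1a, which encodes the cell cycle inhibitor p21, was at 175.5 CPM in sunitinib tumor 6 and at 31.4 to 70.1 CPM elsewhere. Timeless was at 71.2 to 107.5 CPM in controls, 96.2 to 110.9 with sunitinib and 59.5 to 93.4 with R+S, with all R+S tumors below all sunitinib tumors (log2 -0.49, SE 0.16, edgeR adjusted p = 0.0777).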
